A study of Mus musculus with 10 samples.

Results

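The H3K27me3 data are 2 ChIP-seq peak lists from R1E cells, a mouse embryonic stem cell line, 1 from untreated cells and 1 from cells given 0.5 uM Adriamycin for 8 h. All peaks on the 19 numbered chromosomes and X were taken, 97635 untreated and 88363 Adriamycin peaks, or 185998 of the 543779 peaks in the 10 lists of the series. Both cultures came from a C57BL/6X129Sv mix background at fewer than 20 passages and were grown with serum and leukemia inhibitory factor. Peaks of hnRNP L, RNA polymerase II (Pol II), H3K4me3 and H3K79me2 from the same line and treatment served only to describe them. Each target had a single library in each condition, so no difference between them has a replicate check, and no test of the treatment was made. Read depth was unknown, and every difference below is one between deposited lists. The stem cell identity was not checked against marker genes, because no gene annotation on the build of the files (mm9) was used here, and for the same reason regions are given by position without gene names or sequences.

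H3K27me3 is trimethylated lysine 27 of histone H3. The Polycomb repressive complex PRC2 writes it through its enzymes EZH2 and EZH1, and it holds genes of development silent in embryonic stem cells. It spreads into broad domains over clusters of such genes, and together with H3K4me3, the mark of promoters, it forms bivalent promoters that are silent but poised. Adriamycin (doxorubicin) traps topoisomerase II on DNA and causes double-strand breaks.

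The first comparison asked where the covered length of the mark differed between the conditions. The covered length was 101.0 Mb in the untreated and 75.3 Mb in the Adriamycin list, a ratio of 0.746. The bases covered in both lists came to 59.2 Mb, which was 58.6% of the untreated and 78.6% of the Adriamycin length. The untreated list had 41.8 Mb of its own and the Adriamycin list 16.2 Mb. Of the 41.8 Mb, 26.3 Mb (63.0%) lay in peaks that no Adriamycin peak touched. Another 13.7 Mb (32.8%) lay at the edges of peaks that were found in both conditions. Only 1.74 Mb (4.17%) lay in gaps that opened inside an untreated peak between several Adriamycin peaks. Of the Adriamycin list's own bases, 12.04 Mb lay in peaks without an untreated partner, 3.75 Mb at edges and 0.355 Mb in gaps. Most of the difference thus lay in whole peaks and in edges.

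**Figure D1:**
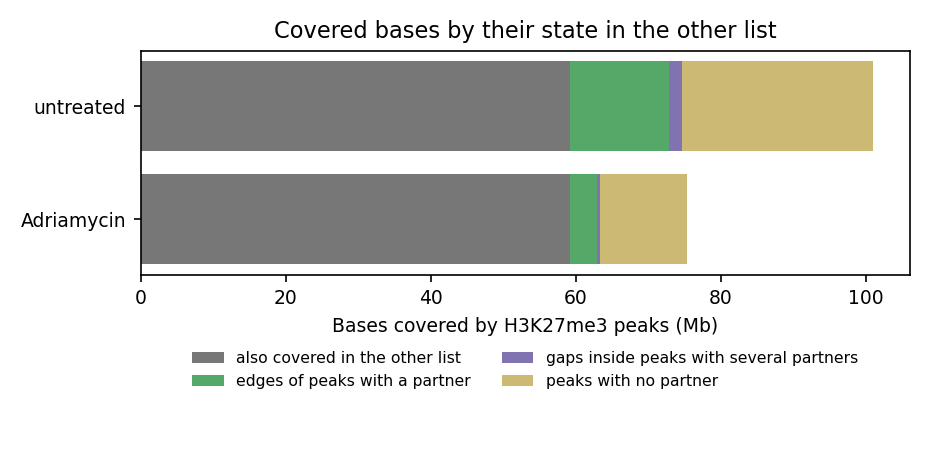
Bases covered by H3K27me3 peaks in each list (horizontal axis, Mb), split by their state in the other list. Both bars share a grey part of 59.2 Mb, and the untreated bar has more in each of the other classes, with 13.7 against 3.75 Mb at edges and 26.3 against 12.04 Mb in peaks without a partner.

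Peaks were narrower in the Adriamycin list. The median width was 715 bp in untreated cells and 603 bp after Adriamycin, and the narrowest peaks measured 183 and 155 bp. Peaks of 1 kb or more numbered 28717 and 18826. From 5 kb up there were 1177 and 543, and from 10 kb up 97 and 33. Peaks of 1 kb or more made up 57.0% of the untreated and 47.3% of the Adriamycin covered length. The widest untreated peak, on chromosome 3 at 108197483-108218716, spanned 21234 bp and met 4 Adriamycin peaks. The widest Adriamycin peak, on chromosome 2 at 118526152-118546213, spanned 20062 bp and met 1 untreated peak. These widest peaks were singled out after their values were seen.

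For 43900 pairs each peak met exactly 1 peak of the other list. The Adriamycin peak was the narrower in 33443 of them (76.2%) and the wider in 10378. The median difference was -123 bp (quartiles -289 and -6 bp). Both ends moved inward by about as much, with medians of 48 bp at the left end and -49 bp at the right end, and the centre moved by a median of -0.5 bp. The Adriamycin peak lay wholly inside the untreated one in 47.2% of pairs, and the untreated one inside the Adriamycin one in 8.30%. Pairs with a mean width under 600 bp differed by a median of -76 bp (-15.4% of the mean width). For those of 1 to 2 kb the median was -201 bp (-15.2%), and for those of at least 5 kb -159 bp (-2.46%). In share of their width, the widest pairs therefore differed least. Pairs leave out peaks with no partner or with several, and only 254 of the 1177 untreated peaks of at least 5 kb were in a pair.

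The second comparison asked which peaks had a partner, meaning a peak of the other list that overlapped by at least 1 bp. A partner was found for 58.8% of untreated peaks and 73.0% of Adriamycin peaks, and none for 40233 and 23861 peaks. At equal covered length the order turned, to 78.9% and 57.3%. These are the shares against which the subsets below are read, and intervals are exact Clopper-Pearson 95% intervals for counting error only. Peaks without a partner often lay near a peak of the other list all the same, though by definition farther than peaks with a partner. Of the untreated ones 53.1% lay within 3 kb of an Adriamycin peak, and the median distance was 2579 bp. Of the Adriamycin ones 60.5% lay within 3 kb of an untreated peak, at a median of 1789 bp. Those over 5 kb away numbered 14762 and 7223, and with a score of at least 200 only 236 and 10. The score is the authors' value for a peak, and a higher one is taken as stronger evidence within its list. The value 3100 recurs among the highest scores, as at the widest peak of each list. The order of the highest scores is therefore not read as an order of strength.

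Lone peaks had no partner more often than peaks with a neighbour at scores under 200 in both lists. Peaks with no other peak of their own list within 3 kb made up 26.3% of the untreated list (25685) and 25.5% of the Adriamycin list (22569). Among untreated peaks of score 50 to 70, 78.6% of the lone peaks (77.8 to 79.4%) and 65.0% of those with a neighbour (64.3 to 65.7%) had no partner. At scores of 100 to 200 the shares were 38.8% (37.5 to 40.1%) and 26.99% (26.4 to 27.6%). Among Adriamycin peaks of score 100 to 200 they were 18.1% (16.9 to 19.2%) and 9.80% (9.36 to 10.3%). At scores of 200 to 500 they were 9.01% and 6.47% in the untreated list, and 1.13% and 0.793% with overlapping intervals in the Adriamycin list. Strong peaks nearly always had a partner. At 1000 and above, 8 of 4203 untreated peaks (0.190%) had none. In the Adriamycin list it was 0 of 2411 at 1000 and above (upper limit 0.153%) and 0 of 3597 at 500 to 1000 (upper limit 0.103%).

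**Figure D2:**
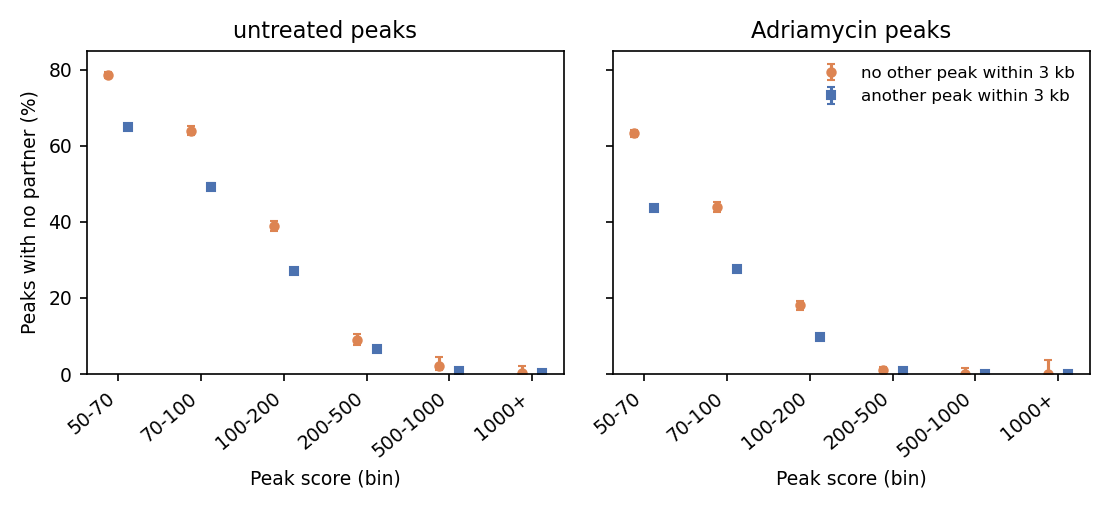
Share of H3K27me3 peaks with no partner in the other list (vertical axis, %) by the authors' peak score, for untreated peaks (left) and Adriamycin peaks (right), with exact 95% intervals. Circles are peaks with no other peak of their list within 3 kb and squares those with a neighbour. The circles lie above the squares at low scores, at 78.6% and 65.0% for untreated peaks of score 50 to 70, and both approach 0 at high scores.

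The 3 strongest untreated peaks with no Adriamycin peak within 5 kb each met an H3K4me3 peak before and after treatment, at chromosome 1, 92893242-92899170, chromosome 5, 32518366-32520699, and chromosome 6, 91752844-91760589. Their scores were 1551.39, 1429.67 and 969.0. The nearest Adriamycin peaks lay 5624, 11012 and 5120 bp away, so those on chromosomes 1 and 6 were just past the limit. The strongest Adriamycin peaks with no untreated peak within 5 kb lay on chromosome 4 at 152794021-152795908 (score 360.09, 1888 bp), chromosome 9 at 31272648-31273485 (score 287.67, 838 bp) and chromosome 1 at 136156072-136157509 (score 262.6, 1438 bp). Untreated peaks nearest to them were 5949, 13896 and 8464 bp away. None of these Adriamycin peaks met H3K4me3 or H3K79me2 in either condition, and the one on chromosome 1 met 2 Pol II peaks after Adriamycin and 0 before. The untreated peak on chromosome 5 likewise met 1 Pol II peak after Adriamycin and 0 before. Pol II of the same condition was met by 1369 of all 11607 Adriamycin peaks of score 200 to 500. The untreated and Adriamycin peaks named here are not of like score. H3K4me3 of the same condition was met by 3120 of all 4203 untreated peaks of score 1000 and above. For untreated peaks of 500 to 1000 it was 2036 of 4720, and for Adriamycin peaks of 200 to 500 it was 2650 of 11607.

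The third comparison asked whether the mark was broken into more pieces. Of the 57402 untreated peaks with a partner, 8808 (15.3%) met 2 or more Adriamycin peaks, and up to 7. In the other direction, 3519 of 64502 Adriamycin peaks with a partner (5.46%) met 2 or more untreated peaks. When the overlap had to reach 50% of the shorter peak, these counts were 6772 and 1286. The untreated peaks that were split were wide, with a median of 2095 bp against 810 bp for those with a single partner. The 10788 gaps that opened in them were narrow, with a median of 86 bp (quartiles 35 and 200 bp). Gaps of at most 200 bp made up 75.1%. H3K4me3 peaks of untreated cells covered 12.4% of the gap bases and 17.5% of the remaining bases of the split peaks. Pol II peaks of untreated cells covered 3.60% and 5.23%. In the other direction, gaps of the untreated list inside split Adriamycin peaks had a median of 50 bp, and 87.0% were at most 200 bp. H3K4me3 peaks of untreated cells covered 9.49% of those gap bases and 16.5% of the remaining bases, and Pol II peaks 2.75% and 4.76%. In both directions the gap bases thus held a smaller share of both than the bases around them.

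The same order was found for H3K4me3, H3K79me2 and Pol II. The shares of partnered peaks that met 2 or more of the other list were 7.26% (untreated peaks) and 1.33% (Adriamycin peaks) for H3K4me3, 25.2% and 13.5% for H3K79me2, and 8.42% and 5.31% for Pol II. The difference between targets was not tested, since each has 1 library per condition.

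Peaks of a list were then joined over gaps of up to 3 kb into domains, and the 887 untreated and 632 Adriamycin domains of at least 20 kb were followed. Every untreated domain of this length met Adriamycin domains. It met 1 in 441 cases, 2 in 299 and 3 or more in 147, with up to 6. The largest of them was itself at least 20 kb long for 517 of the 887, and longer than the untreated domain for 185. Over the span of the 887 domains, untreated peaks covered 71.1% and Adriamycin peaks 58.0% of the bases, with 11976 and 12348 peaks. These domains were chosen on the untreated list, which favours it. The 632 Adriamycin domains were met by 1 untreated domain in 474 cases, by 2 in 132 and by 3 or more in 26. Over their span, chosen on the Adriamycin list, Adriamycin peaks covered 67.3% and untreated peaks 72.5% of the bases, and the untreated peaks covered more in 516 of the 632. Inside domains of their own list of at least 20 kb, the median peak width was 1039 bp in untreated cells and 851 bp after Adriamycin. The order of the 2 counts turned under 1 setting. When the untreated list was reduced to its 53983 strongest peaks, which cover as much as the Adriamycin list, it gave 513 such domains, fewer than the 632. With scores of at least 100 in both lists the counts were 465 and 311, and at equal numbers of peaks 798 and 632. Split single peaks numbered 8423 (untreated) and 2276 (Adriamycin) under that setting. It leaves fewer and wider untreated peaks, with a median width of 1007 bp against 603 bp. That favours splits of untreated peaks, so this setting cannot decide the order of the splits.

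To compare the same stretches in both conditions, the peaks of both lists were joined over gaps of up to 3 kb into common regions. Over all common regions, the ratio of Adriamycin to untreated covered length rose with the span. It was 0.628 for spans under 1 kb, 0.680 for 1 to 5 kb, 0.758 for 5 to 20 kb, 0.825 for 20 to 50 kb and 0.877 for the 107 regions of at least 50 kb. Of the 25171 regions under 1 kb, 12318 were in the untreated list only and 7494 in the Adriamycin list only. Among regions found in both lists the ratios were 0.854, 0.757, 0.764, 0.825 and 0.877, without a rise from the shortest class. Numbers of peaks turned from fewer to more along the same scale. Regions of 5 to 20 kb held 37878 untreated and 36138 Adriamycin peaks, those of 20 to 50 kb 12742 and 13504, and the 107 longest ones 2928 and 3363. The mean peak width in the last class was 1850 bp in untreated cells and 1410 bp after Adriamycin. Of the 1170 regions of at least 20 kb, 1079 had less covered length after Adriamycin and 91 had more. Among them, 635 had more peaks and 397 fewer, and 550 had more peaks on less covered length. The order of the peak numbers turned with scores of at least 100, where 464 of these regions had more peaks and 519 fewer. At equal covered length 1055 had more and 61 fewer, but that setting takes peaks from the untreated list only. The ratio of Adriamycin to untreated peak numbers was then 1.64 over all regions and 1.47 in these, so the count says nothing particular to long regions. With scores of at least 100 in both lists the ratio was 0.510 under 1 kb and 0.850 from 50 kb, and at equal numbers of peaks it was 0.742 and 0.887. With the untreated list at equal covered length the order by span turned over, a setting that takes weak peaks from that list alone and so lowers its length most where regions are short. The ratio was then 1.96 under 1 kb, 1.02 for 1 to 5 kb, 0.942 for 5 to 20 kb, 0.932 for 20 to 50 kb and 0.951 from 50 kb.

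**Figure D3:**
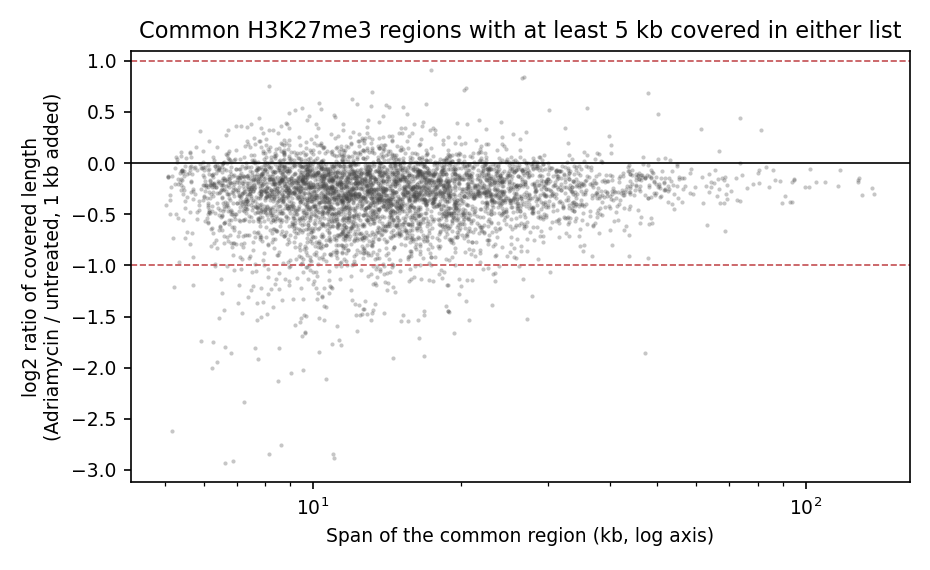
Each point is 1 of the 4817 common regions with at least 5 kb of H3K27me3 in either list, by its span (horizontal log axis, kb) and the log2 ratio of its covered length in the Adriamycin list to that in the untreated list (vertical axis). Dashed lines mark a 2-fold difference. Points lie mostly below 0, with 196 past the lower line and 0 past the upper, and the regions of 50 kb or more stay within the lines.

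The 10 longest common regions all had less covered length and more peaks after Adriamycin. The longest lay on chromosome 15 at 102735147-102873099 and spanned 137.953 kb. The covered length was 118.3 kb before and 95.7 kb after Adriamycin, the largest fall in kb of any region. The number of peaks there was 57 and 77, and their median width 1571 and 883 bp. The widest gap of the Adriamycin list measured 10.1 kb, from 95.7 to 105.8 kb into the region, and untreated peaks covered 8.40 kb of that gap. The widest gap of the untreated list there was 2.16 kb. H3K4me3 peaks covered 18.5 kb of the region before and 16.1 kb after, and Pol II peaks 2.92 and 1.07 kb.

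**Figure D4:**
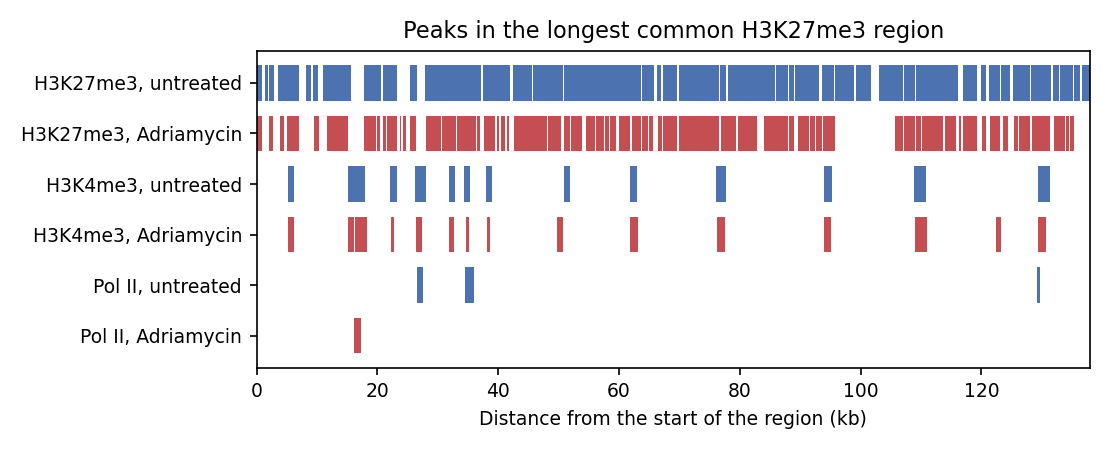
Peaks of H3K27me3, H3K4me3 and Pol II in each condition along the longest common region, on chromosome 15, as distance from its start (horizontal axis, kb). The untreated H3K27me3 row covers 85.8% of the region in 57 blocks, and the Adriamycin row 69.4% in 77 blocks of lower median width. A gap of 10.1 kb opens near 100 kb in the Adriamycin row, while 3 Pol II blocks stand in the untreated row and 1 in the Adriamycin row.

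The region on chromosome 11 at 96116400-96253111 held 116.6 and 98.6 kb before and after Adriamycin, with 41 and 57 peaks. Its widest peak measured 19.1 kb before and 12.3 kb after. On chromosome 6 at 52104463-52232940, 110.0 kb and 99.2 kb were covered by 39 and 58 peaks, and the widest peak measured 15.1 and 6.54 kb. Nearly the same was found on chromosome 2 at 74481408-74609174, with 105.7 and 93.0 kb in 41 and 60 peaks, and on chromosome 7 at 86638786-86766580, with 109.2 and 97.3 kb in 40 and 57 peaks. These regions and the one on chromosome 15 had the 5 largest rises in number of peaks. The widest gap on chromosome 2 stood at the same place in both lists, from 61.4 to 64.0 kb into the region, and measured 2.57 kb in each. The smallest fall among the 10 was on chromosome 8 at 87225238-87342600, from 88.3 to 84.4 kb with 36 and 43 peaks. The lowest ratio among the 10 was on chromosome 2 at 164964763-165095175, with 89.5 and 72.1 kb, where 2 untreated domains stood against 6 after Adriamycin. The regions on chromosome 4 at 124911678-125004643 (70.3 and 53.8 kb) and chromosome 5 at 120655742-120745289 (67.0 and 51.0 kb) completed the 5 largest falls in kb.

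The fourth comparison asked which regions differed most. A common region was counted as 2-fold different on the ratio of covered lengths with 1 kb added to each, among the 4817 with at least 5 kb covered in either list. Lower by 2-fold or more after Adriamycin were 196 regions, 4.07% of those compared. Higher by 2-fold or more were 0 regions (0.0%), with an upper limit of 0.0766%. The median log2 ratio over the 4817 was -0.28, and 90.0% lay below 0. With scores of at least 100, 256 of 3602 regions (7.11%) were 2-fold lower and 4 were 2-fold higher. At equal covered length, 76 of 4096 (1.86%) were lower and 15 higher, and with 5 kb added to each length 17 of 4817 were lower and 0 higher.

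A 2-fold lower value was more frequent among short regions and among those with weak peaks. Such regions made up 4.91% of regions of 5 to 20 kb (179 of 3647), 1.45% of those of 20 kb or more (17 of 1170) and 0 of the 107 of 50 kb or more (upper limit 3.39%). Sorted by the strongest untreated peak in the region, they made up 24.2% at scores under 200 (32 of 132, 17.2 to 32.5%), 8.86% at 200 to 500 and 2.00% at 500 or more (73 of 3658, 1.57 to 2.50%). Regions with H3K4me3 in untreated cells were 2-fold lower in 3.08% (2.55 to 3.70%) and regions without it in 7.08% (5.69 to 8.69%). At like score the intervals overlapped. At 200 to 500 the shares were 9.14% with and 8.59% without H3K4me3, and at 500 to 1000 they were 4.16% and 3.30%. From 1000 they were 0.864% (0.521 to 1.35%) and 2.43% (0.793 to 5.57%).

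In the 196 regions the covered length of H3K4me3, Pol II and H3K79me2 was not lower after Adriamycin. H3K4me3 covered 200.6 kb there before and 242.6 kb after, a ratio of 1.21 against 1.01 over all 4817 regions. Pol II covered 117.2 and 167.0 kb, a ratio of 1.43 against 1.03. Pol II was found at 75 of the 196 regions before and 81 after, gained at 9.69% and lost at 6.63%, against 10.3% and 9.51% of all 4817. H3K79me2, a mark of transcribed gene bodies, covered 51.6 and 53.8 kb, a ratio of 1.04 against 0.813. It was found at 15 and 17 of the 196 regions, and at 430 and 396 of all 4817. These differences between the 196 and all regions were not tested.

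The longest of the 2-fold lower regions, singled out after the values were seen, lay on chromosome 8 at 124673733-124720981. It held 20.1 kb of H3K27me3 in 21 peaks before and 4.83 kb in 8 peaks after Adriamycin, while Pol II went from 1.15 to 4.26 kb. On chromosome 1 at 167758071-167785872 the mark went from 16.8 to 6.22 kb, H3K4me3 from 2.11 to 2.99 kb and Pol II from 0 to 0.635 kb. On chromosome 17 at 89147437-89177669 it went from 17.5 to 7.84 kb with no peak of the other targets in either condition. The largest drop to 0 was on chromosome 1 at 92893242-92899882, where 6.62 kb in 2 untreated peaks had no Adriamycin peak.

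Of the 4817 regions, 483 held more of the mark after Adriamycin, and the largest rises in kb lay in a stretch of distal chromosome 4. The 5 regions with the largest rise in kb all lay there, as did 11 of the 20 largest rises. The region at 153795196-153868640 held 35.9 kb before and 49.3 kb after Adriamycin, and that at 154106212-154187323 held 47.3 and 59.5 kb. The region at 153570448-153606392 held 23.0 kb in 14 peaks before and 33.8 kb in 11 peaks after, so that 64.0% and then 94.1% of it was covered. At 153259881-153286397 the covered length was 11.4 and 21.1 kb (log2 ratio 0.83), and at 153915794-153963580 it was 14.1 and 23.4 kb. An Adriamycin peak of 11142 bp at 153575329-153586470, which met 6 untreated peaks, had the third highest score of its list. That place is not read as one of strength, because the value 3100 recurs among the highest scores.

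Over the whole stretch at 153000001-154200000, whose limits were set after the values were seen, the covered length was 449.99 kb before and 525.0 kb after Adriamycin, a ratio of 1.17. It was higher in 10 of 12 bins of 100 kb and in 15 of the 22 regions compared there. H3K4me3, H3K79me2 and Pol II also covered more of the stretch, and hnRNP L had no peak there. Pol II covered 81.1 and 129.4 kb, H3K79me2 46.7 and 59.6 kb and H3K4me3 49.6 and 56.6 kb. These values did not move together in every bin. At 153400001-153500000 H3K27me3 covered 68.7 and 55.4 kb while Pol II covered 5.19 and 21.3 kb. At 153600001-153700000 H3K27me3 covered 40.2 and 51.5 kb and Pol II 10.8 and 30.8 kb. In the regions with the largest rises named above, H3K79me2 had no peak and H3K4me3 covered at most 1.61 kb. Pol II covered 0 and 0, 1.58 and 1.56, 0 and 0.626, 1.17 and 1.06, and 0 and 0 kb there, in the order named. The part of these targets in the H3K27me3 difference was not tested. In the 3 Mb before the stretch the mark covered 383.6 and 303.8 kb, and in the bins beyond its end 169.0 and 150.8 kb. With scores of at least 100 the ratio in the stretch was 1.19, and at equal covered length 1.33.

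**Figure D5:**
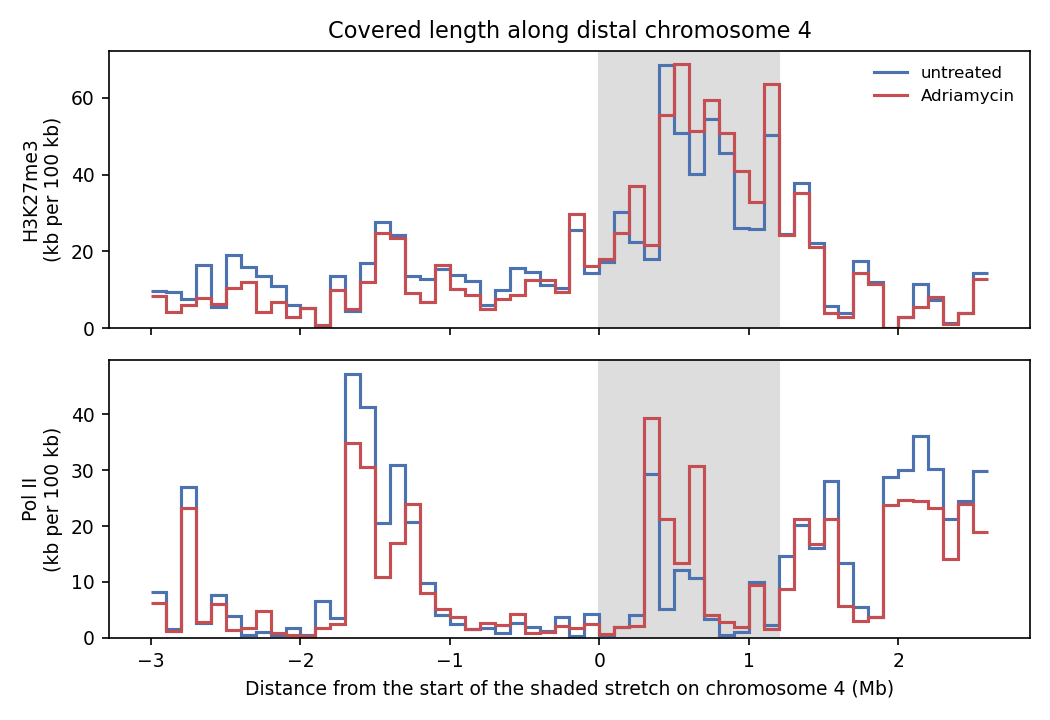
Covered length of H3K27me3 (top) and Pol II (bottom) in bins of 100 kb (vertical axes, kb) along distal chromosome 4, as distance from the start of the shaded stretch (horizontal axis, Mb), in untreated cells (blue) and after Adriamycin (red). Within the shading the Adriamycin line lies above the untreated one for H3K27me3 in 10 of 12 bins, while before it the untreated line is mostly the higher.

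Few 1 Mb windows with much of the mark showed a rise. Of 1299 windows of 1 Mb with at least 20 kb of the mark in untreated cells, 3 (0.231%) held more after Adriamycin, and the median log2 ratio with 10 kb added was -0.36 (5th and 95th percentiles -0.62 and -0.16). The counts were the same when either list had to reach 20 kb. Over all windows with any of the mark, 194 of 2480 (7.82%) held more after Adriamycin, a count added after the values were seen. The 3 windows were chromosome 4 at 153000001-154000000 (373.7 and 428.5 kb), the next one on chromosome 4 (200.2 and 209.9 kb) and chromosome 5 at 113000001-114000000 (159.1 and 161.0 kb). The last held the regions with the highest ratios of all, at 113254583-113271937 (3.18 and 6.83 kb) and 113119572-113146367 (8.34 and 15.8 kb). In the first of these regions Pol II covered 0.639 and 1.21 kb and in the second 0 and 1.14 kb, and neither held H3K4me3. Over the whole 1 Mb window on chromosome 5 Pol II covered less after Adriamycin (93.6 and 71.9 kb), as did H3K4me3 (66.3 and 52.2 kb). By chromosome, the ratio ran from 0.709 on chromosome 16 to 0.794 on chromosome 4 among the numbered ones, and it was 0.707 on X. Without the stretch, that of chromosome 4 was 0.770.

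The last comparison asked what the peaks of the mark overlapped in the same condition. H3K4me3 was found at 12.4% of untreated H3K27me3 peaks (12.2 to 12.6%) and 12.5% of Adriamycin ones (12.3 to 12.7%), intervals that overlap. Pol II was found at 8.16% (7.99 to 8.33%) and 7.46% (7.29 to 7.64%), H3K79me2 at 2.06% (1.98 to 2.15%) and 1.85% (1.76 to 1.94%), and hnRNP L, an RNA-binding protein, at 0.163% and 0.155%. Any of the 4 was found at 16.6% of untreated and 17.1% of Adriamycin peaks. Peaks with H3K4me3 were wide, with medians of 1779 bp in untreated cells and 1366 bp after Adriamycin, against 678 and 571 bp for peaks without it.

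Peaks with H3K4me3 had no partner less often, in 17.4% of untreated peaks against 44.6% of those without H3K4me3, but they were also stronger, with median scores of 373.645 and 89.51. At like score the untreated contrast was small and turned. At 50 to 70 the shares without a partner were 62.2% with H3K4me3 (59.2 to 65.2%) and 70.6% without it (70.05 to 71.1%), at 100 to 200 they were 29.8% and 29.6%, and at 200 to 500 they were 8.90% (7.85 to 10.04%) and 6.27% (5.83 to 6.73%). In the Adriamycin list it was larger and in 1 direction at the scores under 200. Peaks with H3K4me3 had no untreated partner in 29.4% (26.9 to 32.1%) at 50 to 70, against 52.1% (51.5 to 52.7%) without it, and in 6.17% (5.23 to 7.23%) at 100 to 200, against 12.01% (11.6 to 12.5%). Peaks with Pol II showed the same order there, at 36.9% (34.1 to 39.9%) against 51.7% at 50 to 70 and 8.19% (6.92 to 9.61%) against 11.7% (11.2 to 12.1%) at 100 to 200. For H3K79me2 the intervals overlapped in each of these bins. Peaks with H3K4me3 were wider at like score (575 and 450 bp at 50 to 70 in the Adriamycin list), and the part of width in these shares was not tested.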

How the data were processed

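Peaks of H3K27me3 were used as the authors deposited them, with a chromosome, start, end, name and score each. Per the submitters' processing notes, CASAVA 1.8.2, MACS 1.4.1 and build mm9 were named. Their roles, the input, duplicates and read depth were not given in the sources used here. The score is the authors' deposited value, at least 50 in each list, and was used only to rank and filter within a list. Each library has a peak list of its own. The 4 untreated and 2 Adriamycin peaks on Y were left out.

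Overlaps, joined regions and covered lengths were computed with Python 3.11.15, numpy 2.4.6, pandas 2.3.3 and SciPy 1.17.1, and the steps were tested on simulated lists. The members, comparisons and settings were chosen with earlier results of these data known. Regions were named by span, by change in covered kb or in number of peaks, and by score. Others are said to be chosen later. Coordinates are 1-based on mm9. Gene starts were not analysed here, for want of an annotation on that build.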

Additional observations from a re-analysis of the deposited data

How the results depend on the processing

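Each of the comparisons was repeated with an overlap that reached 50% of the shorter peak, scores from 100 up, equal numbers of the strongest peaks, equal covered length, peaks within 1 kb merged, numbered chromosomes only, and joining gaps of 1 and 5 kb, where these apply. The planned values at gene starts were not run. No paired analysis was possible because each condition has 1 library, and for the same reason no library could be left out. The ratio of covered length stayed below 1 in 4 of 4 settings, at 0.707 (score), 0.784 (equal numbers) and 0.768 (merged). The share of untreated peaks with a partner, 58.8%, was 57.3% with 50% overlap, 61.1% by score, 62.3% at equal numbers, 78.9% at equal covered length and 57.9% merged. That of Adriamycin peaks, 73.0%, was 71.2%, 81.9%, 70.6%, 57.3% and 70.2% in that order, so which list was shared more turned at equal covered length, a setting that takes weak peaks from the untreated list only. The median width difference was -157 bp by score, -130 bp at equal numbers, and -160 bp both at equal covered length and merged. Split untreated peaks numbered 4492 by score and 3104 merged. Adriamycin peaks that met several untreated ones, a count added after the data were seen, numbered 1286 with 50% overlap, 1842 by score, 2276 at equal covered length and 997 merged. More untreated than Adriamycin peaks were split in 6 of 6 settings. Equal covered length favours that order, since it leaves fewer and wider untreated peaks. Domains of at least 20 kb numbered 465 (untreated) and 311 (Adriamycin) by score, 204 and 134 with gaps of 1 kb and 1716 and 1252 with gaps of 5 kb. At equal covered length the untreated count was 513, below the 632, the exception among 7 settings. Regions 2-fold lower numbered 256 by score, 159 at equal numbers, 76 at equal covered length, 117 and 260 with gaps of 1 and 5 kb, and 17 with 5 kb added. Regions 2-fold higher numbered 4 by score, 1 at equal numbers, 15 at equal covered length and 1 with gaps of 1 kb. Peaks with any other target made up 13.8% (untreated) and 14.4% (Adriamycin) with 50% overlap, and 26.2% and 27.3% by score. For untreated peaks the share was 17.7% at equal numbers and 24.2% at equal covered length, above the Adriamycin 17.1%. The ratio in the chromosome 4 stretch, tried after the data were seen, was 1.19 by score and at equal numbers and 1.33 at equal covered length. The cause of these moves was not tested beyond how each setting is built, and unknown depth limits every comparison of weak peaks.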

Other observations

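Other targets did not move one way in the 1 Mb windows where the ratio of H3K27me3 covered length was lowest. On chromosome 8 at 46000001-47000000, H3K27me3 covered 50.1 kb in 61 peaks in untreated cells and 23.2 kb in 37 peaks after Adriamycin, while H3K79me2 covered 82.2 and 90.6 kb and Pol II 14.3 and 18.6 kb. On chromosome 17 at 89000001-90000000 the mark covered 39.6 and 18.7 kb, and Pol II 11.4 and 2.75 kb. On chromosome 10 at 67000001-68000000 it covered 25.6 and 10.5 kb, and Pol II 32.1 and 26.6 kb. On chromosome 10 at 118000001-119000000 it covered 47.5 and 23.5 kb, and Pol II 15.3 and 7.81 kb. On chromosome 18 at 46000001-47000000 it covered 25.3 and 10.6 kb, and Pol II 30.1 and 23.5 kb. Pol II was thus higher in 1 of these 5 windows and lower in 4. The share over all windows is not given here, so the count is not read as a trait of these windows. In the last 4, H3K79me2 covered 14.8 and 15.4, 63.9 and 70.9, 37.9 and 31.9, and 83.05 and 78.4 kb in that order. H3K4me3 covered 19.9 and 20.9 kb in the window on chromosome 8. In the last 4 it covered 11.1 and 7.38, 46.3 and 36.6, 15.7 and 13.5, and 34.1 and 32.5 kb. With 10 kb added to each length, the median log2 ratio of H3K27me3 was -0.35 in the 325 windows with 20.0 to 34.7 kb untreated. It was -0.34 in the 325 windows with at least 92.8 kb in untreated cells. The added length shrinks the ratio more where there is less of the mark. These medians therefore cannot show whether the difference depends on the amount of the mark.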
